A study of Mus musculus with 96 samples.

Results

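The DNA replication and S-phase genes are 42 genes whose products license, start, run and complete the copying of the genome. They were named by their known function, and the rule uses no measured value. All 42 were among the 55487 genes of the count table, and all 42 passed the filter on low values (a count of 10 in no fewer than 10% of cells), as did 14463 genes in all. The cells were horizontal basal cells (HBCs), the stem cells of the olfactory epithelium, from wild type mice 6 to 8 weeks old that had received methimazole, a drug that injures this epithelium, 2 days before dissection. Every cell came from this 1 condition, and no uninjured, untreated or mutant cell was analysed here. HBCs were cultured, moved from a Tropoelastin to a Fibronectin coating, and followed until they divided, after which the daughter cells were picked singly and their RNA was sequenced. The 96 cells form 48 pairs of daughter cells, and the numbers 1 and 2 of a pair carry no meaning. The design compares the daughters within each pair. No label tells which mouse or culture a cell came from, so the 96 cells are 1 sample without replicates, every correlation or share describes these cells only, and no p-value is given.

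As background, replication is prepared in G1, when the origin recognition complex with Cdc6 and Cdt1 loads the ring of Mcm2 to Mcm7 onto DNA, and it starts in S phase, when Cdc45 and the GINS complex join that ring to make the moving helicase. Polymerases then copy the strands on the sliding clamp Pcna while ribonucleotide reductase supplies nucleotides. Many of these genes are transcribed under E2F factors around the G1/S transition, and quiescent cells hold little of the licensing machinery.

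Promoters were searched for E2F-type letters as a shared feature that the choice of genes did not use. The searched windows were those of RefSeq on GRCm38.p6, from 250 bases before to 50 bases after each annotated start, and 33 members had an entry. Gins1, Gins2, Gins4, Gmnn, Mcm4, Pole, Prim2, Rfc2 and Ccne2 had none. The 8-letter words TTTCCCGC, TTTGGCGC, TTTCGCGC and TTTGCCGC were searched on both strands, and matches on opposite strands can overlap. Of these 33 members 13 (39.4%) held at least 1 match, against 704 of 27025 genes (2.60%) over all windows of the same length. With only the bases before the start, 8 of 33 members (24.2%) and 583 of 27025 genes (2.16%) held a match. Upstream stretches are shown for the helicase subunits and licensing factors that held a match there. These roles were picked because the helicase subunits varied together most closely and Orc1 and Cdc6 were near absent in many cells, as described below. Of the other helicase genes, Mcm2 held no match, Mcm3 held matches only after the start and Mcm4 had no entry. Among the other licensing genes Cdt1 held a match only after the start and Orc6 held none. Capitals mark the matched letters, and the strand is that of the gene.
Mcm5 chr8:75109336-75109387, forward strand: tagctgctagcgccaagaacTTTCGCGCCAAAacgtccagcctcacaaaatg
Mcm6 chr1:128359725-128359835, reverse strand: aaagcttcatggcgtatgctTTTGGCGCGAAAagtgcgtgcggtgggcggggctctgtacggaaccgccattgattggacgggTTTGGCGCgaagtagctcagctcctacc
Mcm7 chr5:138172021-138172068, reverse strand: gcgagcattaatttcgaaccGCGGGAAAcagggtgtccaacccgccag
Orc1 chr4:108579407-108579453, forward strand: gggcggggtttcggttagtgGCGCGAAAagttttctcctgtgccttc
Cdc6 chr11:98907993-98908040, forward strand: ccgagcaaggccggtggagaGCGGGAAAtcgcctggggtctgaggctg
In Mcm5 2 matches overlapped, the first beginning 153 bases before the start. In Mcm6 the first 2 of 3 matches overlapped, 110 bases before the start. The matches of Mcm7, Orc1 and Cdc6 began 165, 27 and 138 bases before it. The gene spans used for counting began elsewhere, at chr5:138172422 for Mcm7, chr4:108579423 for Orc1 and chr11:98907801 for Cdc6. The matches of these genes thus lay inside the counted spans, not before them. A second window of Mcm7 held no match. The window of E2f1, a member without a match, also lay inside its counted span. The 13 members with a match and the 20 members without a match had median correlations of 0.56 and 0.60 with the mean standardized level of the other members over 96 cells. A match describes letters, not a bound site.

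The cells held between 29454150 and 44849003 gene counts each (median 36152760) and 11403 to 14632 detected genes, and ERCC spike-in RNA, added to every lysate, took 1.06% to 5.75% of all counts. The HBC markers Trp63, Krt5 and Krt14 were detected together in all 96 cells, with a summed count of 8854 to 526754. Markers of neuronal lineage cells reached 10 counts in sum in 21 cells, sustentacular markers in 5, fibroblast markers in 7, the endothelial marker in 5 and the immune markers Ptprc and Cd68 in 57 cells, with a highest immune sum of 11064. Their part in the results was not tested. The file names place the cells in 12 sets of 8, each with 4 whole pairs. Whether a set was handled together is not stated. The 42 members together made up 0.345% of the gene TPM of the median cell (transcript abundance corrected for gene length and library size), with a range of 0.0505% to 0.748%.

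The helicase subunits Mcm2, Mcm3, Mcm4, Mcm5, Mcm6 and Mcm7 were abundant and closely matched in level. Their median TPM over 96 cells ran from 81.9 for Mcm4 to 135 for Mcm3, a 1.64-fold range. Their products form a ring with 1 copy of each. Mcm2, at chr6:88883474-88898780 on the reverse strand, had a lowest deposited count of 24, a median of 7581.5 and a highest of 22213. Mcm5 ran from 0 through 7533 to 39071. The range of Mcm2 was not continuous, since 8 cells held 60 counts or fewer and the next cell held 476. Mcm3 showed the same gap, with 6 cells at 53 counts or fewer and the next at 599. Because such counts lie under 1% of a gene's mean here, a count of 1 or more was not read as expression. Mcm7 shares 12.6% of its exon bases with other genes, and the library kit does not mark strand, so some of its counts may belong to Ap4m1 or Cops6.

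The licensing factors fell into steady and variable members. Orc6, a subunit of the origin recognition complex, and Gmnn, the inhibitor of Cdt1, had median TPM of 114 and 134 and were counted in all 96 cells. Orc1, the subunit whose level changes through the cycle, had a median TPM of 5.36 and stood under a TPM of 1 in 38 cells. Cdc6, the loading ATPase, ran from 0 through a median of 650 to 9647 counts and stood under a TPM of 1 in 35 cells. Cdt1, which brings the ring to the origin, ran from 3 through 2065.5 to 12292 counts, with 21 cells under a TPM of 1. Orc1, Cdc6 and Cdt1 were thus near absent in 21 to 38 cells and plentiful in others, whereas Gmnn stood under a TPM of 1 in 2 cells. Orc1 and Orc6 share 10.8% and 6.93% of their exon bases with genes on the opposite strand.

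Factors that activate the helicase were lower. Mcm10, an initiation factor, had a median TPM of 18.9, and Cdc45 had 11.7 with 41 cells under a TPM of 1. Among the GINS subunits, which form a complex of 4 different proteins, the median TPM ran from 1.75 for Gins3 through 18.3 for Gins1 and 19.8 for Gins2 to 58.4 for Gins4, a 33.3-fold range against 1.64-fold in the Mcm ring. Gins2 shares 67.3% of its exon bases with Gse1 on the opposite strand, and its level is uncertain for that reason.

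The clamp and the large loader subunit were present in all cells, and the small loader subunits in most. Pcna, the sliding clamp, at chr2:132249162-132253314 on the reverse strand, had the second-highest median TPM of the members at 298 and the narrow range of 505 through 9694.5 to 25041 counts. Rfc1, the large loader subunit, ran from 671 through 4786.5 to 12271 counts. Pcna and Rfc1, with the nucleotide reductase subunit Rrm2, were the members with a TPM of 1 or more in all 96 cells. The small loader subunits Rfc2, Rfc3, Rfc4 and Rfc5 had median TPM of 49.3, 33.7, 78.4 and 61.9. They stood under a TPM of 1 in 1, 15, 10 and 7 cells. The processed copy Pcna-ps2 held a median of 177 counts and a highest of 893, and counts between the gene and its copy cannot be told apart with certainty.

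Of the polymerase and primase genes, Pola1 and Pola2 of polymerase alpha had median TPM of 29.0 and 59.6, and the primase subunits Prim1 and Prim2 had 63.2 and 17.0. Pole and Pole2 of the leading-strand polymerase epsilon had 13.2 and 15.6, and Pold1, the catalytic subunit of polymerase delta, had 35.6. Each of Pole, Pole2 and Pold1 stood under a TPM of 1 in 20 cells. The single-strand binding subunits Rpa1, Rpa2 and Rpa3 lay within a 1.61-fold range of median TPM, from 56.7 to 91.3, and also form 1 complex. Fen1, the flap nuclease of Okazaki fragments, and Lig1, the ligase that joins them, had median TPM of 75.99 and 54.4. Fen1 shares 84.2% of its exon bases with other genes, and its counts cannot be assigned to it alone. Smaller shares, from 5.79% in Lig1 to 17.4% in Ccne2, are shared by Cdc45, Slbp, Pole2, Rfc5, Rfc4 and Rfc2 as well.

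The highest single level was in nucleotide supply. Rrm2, the regulated subunit of ribonucleotide reductase, at chr12:24708241-24714146 on the forward strand, ran from 105 through 14125.5 to 42660 counts, with the highest median TPM of all members at 310. Its partner Rrm1 had a median TPM of 165 and Tyms, the thymidylate synthase, had 51.7. The regulators of the G1/S transition were low and uneven. Ccne1, which encodes cyclin E1 and lies at chr7:38097984-38107534 on the reverse strand of GRCm38, ran from 0 through 1002 to 12119 counts and Ccne2 had a median TPM of 8.21, while E2f1, a transcription factor of the pathway, had a median TPM of 2.76 and stood under a TPM of 1 in 44 cells. Slbp, which binds the stem-loop of histone mRNA, had a median TPM of 104, but replication-dependent histone transcripts lack the poly(A) tail that the capture used and were not examined.

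**Figure D1:**
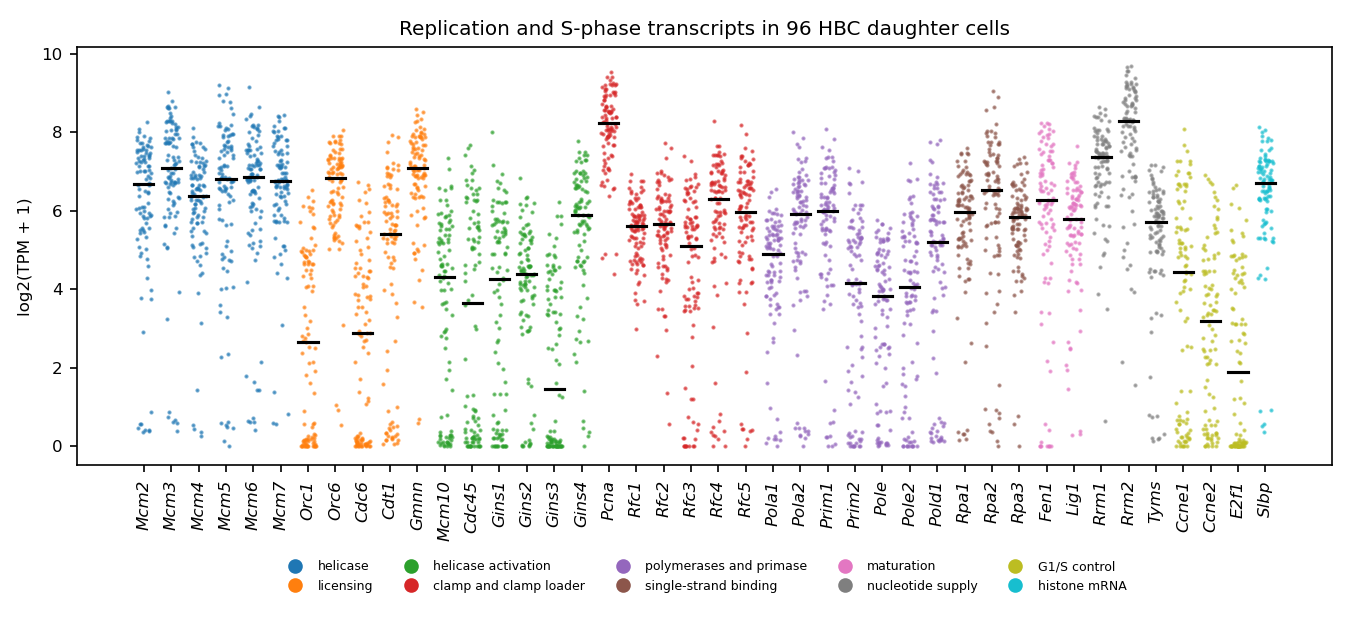
Level of each member in log2(TPM + 1), with 1 point per cell for 96 cells, a bar at the median and colors by role. Median TPM runs from 1.75 (Gins3) to 310 (Rrm2), and most members show a group of cells near 0 apart from the main cloud.

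Daughter cells of a pair often differed in a member, and they did so about as often for other genes of like abundance. With ERCC-normalized counts, the daughters of at least 24 of 48 pairs differed by 1.5-fold or more in 40 of the 42 members (95.2%). The same held for 79.5% of the 14463 genes that passed the filter, and for 90.9% of the 8258 genes whose mean fell in the range of the members. Pcna and Rfc1 were the exceptions, at 19 and 23 pairs. At a 2-fold cutoff 26 members (61.9%) and 61.02% of the 14463 genes met the same rule. Of 20 ERCC transcripts with a mean in that range, which were added in equal amount to every cell, 13 also differed by 1.5-fold in at least 24 pairs, with a range of 7 to 42 pairs. The median was 29 pairs for these ERCC transcripts and 34 for the members. Differences of 1.5-fold or more between daughters were thus also seen in RNA that was added equally to both. How far the ERCC ratios went past that cutoff was not examined.

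**Figure D2:**
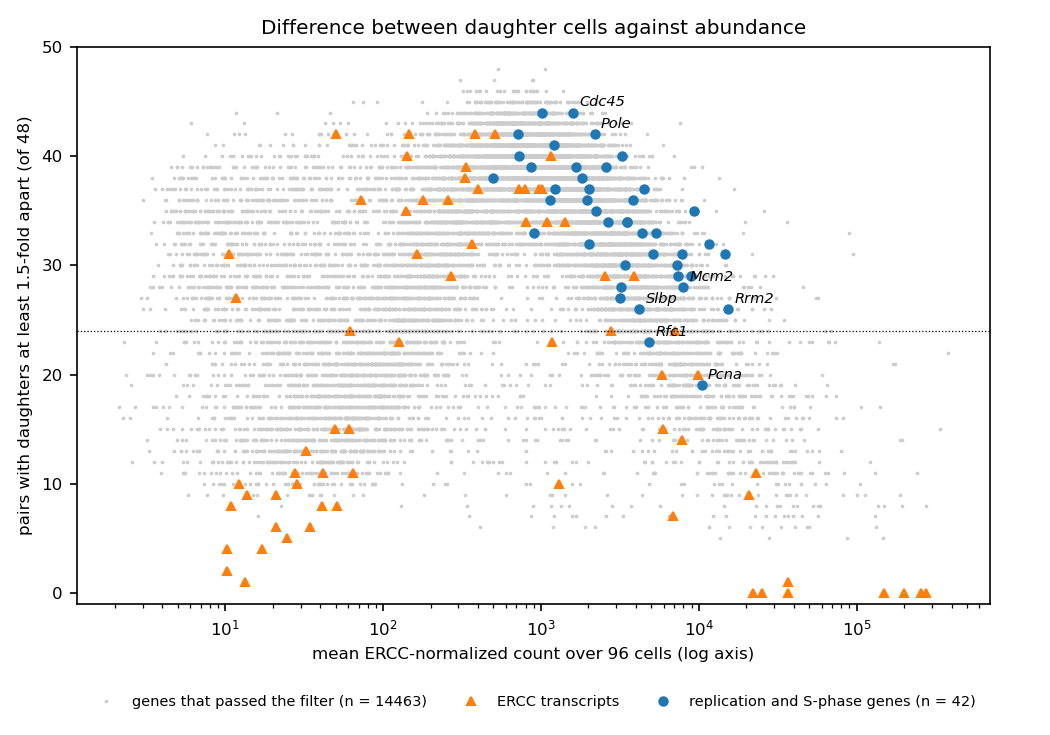
Number of pairs (of 48) whose daughter cells differed at least 1.5-fold in a gene against its mean ERCC-normalized count on a log axis, for all filtered genes (grey), ERCC transcripts (orange) and the 42 members (blue), with a dotted line at 24 pairs. The members lie within the cloud of other genes, and Pcna with 19 pairs and Rfc1 with 23 lie below the line.

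The members differed among themselves in this measure. Orc1 and Cdc45 were 1.5-fold apart in 44 pairs each, with a median ratio between daughters of 8.40 and 21.3. Pole and Gins1 were apart in 42 pairs each. At the other end Rrm2 and Slbp were apart in 26 pairs each, with median ratios of 1.54 and 1.64, and Pcna had a median ratio of 1.40. In Orc1 1 daughter was at 0 counts and the other was not in 12 pairs, in E2f1 in 14, in Gins3 in 11 and in Cdc45 in 10. Mean normalized counts also differed, at 1017 for Orc1 and 1600 for Cdc45 against 10439 for Pcna and 15300 for Rrm2. ERCC transcripts with means from 1010 to 1414 were 1.5-fold apart in 10 to 40 pairs. Those with means from 6877 to 9937 were so in 7 to 24 pairs. The part of abundance in the order of the members was not tested.

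Daughter cells nonetheless shared a larger part of the variation in the members than in most genes. The intraclass correlation, the share of the variance of log2(CPM + 1) that lies between pairs and not within them, had a median of 0.36 over the 42 members and 0.11 over the 14463 genes. It exceeded 0.5 in 8 members (19.0%) and in 4.40% of all genes, and in 4.26% of the 8258 genes of like abundance. The 8 members were Ccne1 (0.69), Rpa2 (0.69), Mcm2 (0.59), Fen1 (0.56), Rrm2 (0.55), Pola1 (0.53), Cdc6 (0.51) and Rpa1 (0.51). Centred within the 12 sets, which removes differences between pairs by construction, the medians were 0.18 over members and -0.04 over all genes, and 2 members (4.76%) and 1.55% of all genes exceeded 0.5, Ccne1 at 0.63 and Rpa2 at 0.51. Without the 6 pairs that hold a cell of very low score, described below and chosen after the values were seen, 3 members exceeded 0.5, Ccne1 at 0.67, Rrm2 at 0.58 and Cdc6 at 0.51, against 3.60% of all genes, and the member median was 0.22. Without set 12 the count was 14, against 5.06% of all genes, and with ERCC scaling it was 14, against 6.90%. Ccne1, at a TPM under 1 in 30 cells, had the highest value of the members over all pairs, after centring and without the 6 pairs. Cdc45, in contrast, had an intraclass correlation of 0.15, and Gins2, Rpa3, Pole2 and Pold1 lay between 0.09 and 0.11.

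To describe a cell by all members at once, an S-phase score was taken as the mean over members of the standardized log2(CPM + 1). It ran from -1.73 to 0.85 over the 96 cells and had an intraclass correlation of 0.72 over pairs, 0.56 after centring within sets. A G2/M score from 16 mitotic genes such as Top2a, Mki67 and Ccnb1 had 0.71. Over all pairs the value of the S-phase score was above that of every single member, but after centring it was below the 0.63 of Ccne1.

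**Figure D3:**
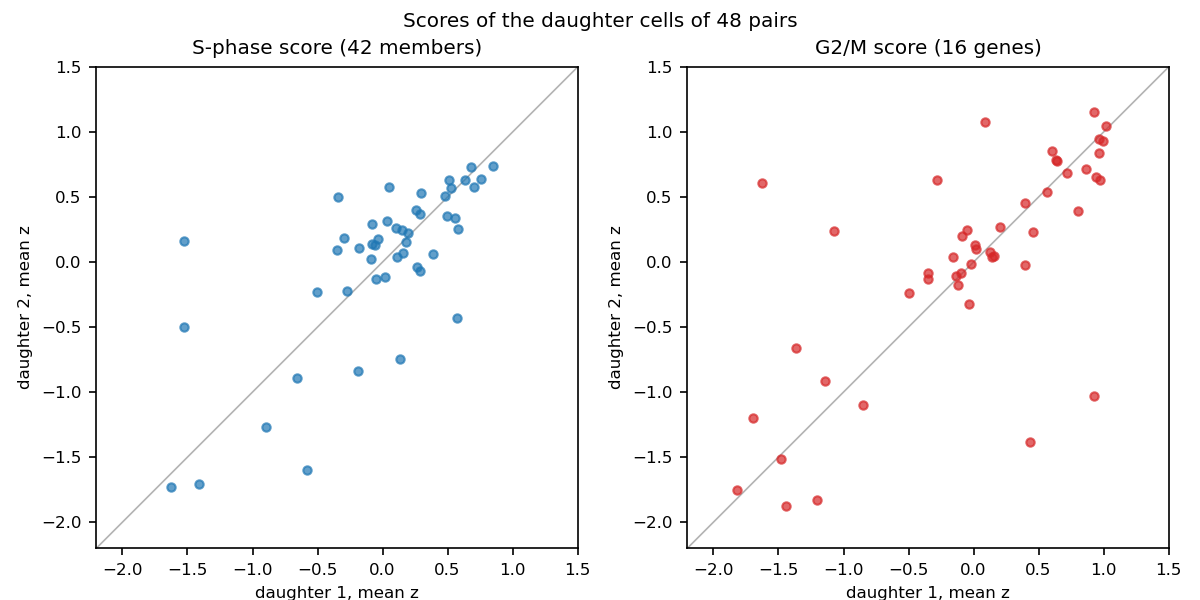
S-phase score (left, 42 members) and G2/M score (right, 16 genes) of daughter 2 against daughter 1, in mean z units, with 1 point per pair for 48 pairs and a grey line at equality. Most pairs lie along the line in both panels, with intraclass correlations of 0.72 and 0.71, and a few pairs lie far from it.

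Few pairs were split as a whole. In 5 of 48 pairs (10.4%) at least 75% of the members were higher in the same daughter. The median pair had 26 of 42 members higher in 1 daughter, with a range of 21 to 37. About 21 is the least this measure can give, and the same measure was not taken over other sets of genes. In pair 38 daughter 1 was higher in 37 members and in 49.1% of all genes, with a median difference of 1.98 on the log2 scale. In pair 43 daughter 2 was higher in 37 members and 46.9% of all genes, by a median of 1.44. In pair 46 daughter 2 was higher in 34 members and 51.96% of all genes, by a median of 3.79. The other such pairs were 8 and 17. In pair 8 daughter 2 was higher in 36 members and 42.2% of all genes. In pair 17 daughter 1 was higher in 34 members, but also in 60.8% of all genes.

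Pair 46 was split furthest. Its daughter 1 held 1288 counts of Mcm2, 0 of Mcm5, 102 of Mcm6, 505 of Pcna and 672 of Rrm2. Daughter 2 held 12488, 6298, 9428, 7103 and 17999 counts of the same genes. The G2/M genes went with them, with Top2a at 63 and 16818 counts, and Trp63, the HBC master regulator, went the other way, at 19637 counts in daughter 1 and 37 in daughter 2. Trp63 was read out in pair 46 after its values had been seen, and over all 48 pairs its difference had a rho of 0.06 with the difference of the S-phase score, so pair 46 does not stand for the others.

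Across cells the members tended to rise and fall together, most closely in the Mcm ring. Over the 861 combinations of 2 members the Spearman correlation of CPM over 96 cells had a median of 0.31, and 848 were positive. With each set left out in turn the median ran from 0.27 to 0.33. It was 0.04 among the G1 genes, 0.22 among the other replication genes and 0.71 among the G2/M genes, lists described below. The same values were not taken over all genes. These cells share 1 pool and differ in depth and detection, which enters every such value. Among the 6 helicase genes the median was 0.66, and all 15 combinations were positive. The highest were Mcm3 with Mcm5 at 0.76, Mcm3 with Mcm6 at 0.73 and Mcm4 with Mcm5 at 0.72. Mcm3 with Rrm2 and Mcm5 with Rpa1 followed at 0.71 each. The single-strand binding genes, of 1 complex and within a 1.61-fold range of median TPM, had a median of 0.22. The GINS genes, which also act as 1 complex, had a median of 0.07 over their 6 combinations. These ran from -0.03 for Gins1 with Gins2, whose counts are uncertain, to 0.26 for Gins1 with Gins4. Gins3, Gins1, Gins2 and Gins4 stood under a TPM of 1 in 46, 30, 12 and 5 cells, and each helicase gene in 8 or fewer. The part of these low values in the correlations was not tested. The helicase activation genes had a median of 0.16 among themselves, the polymerase and primase genes 0.26 and the licensing genes 0.35, where Cdc6 with Cdt1 reached 0.53 and Cdt1 with its inhibitor Gmnn 0.35.

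**Figure D4:**
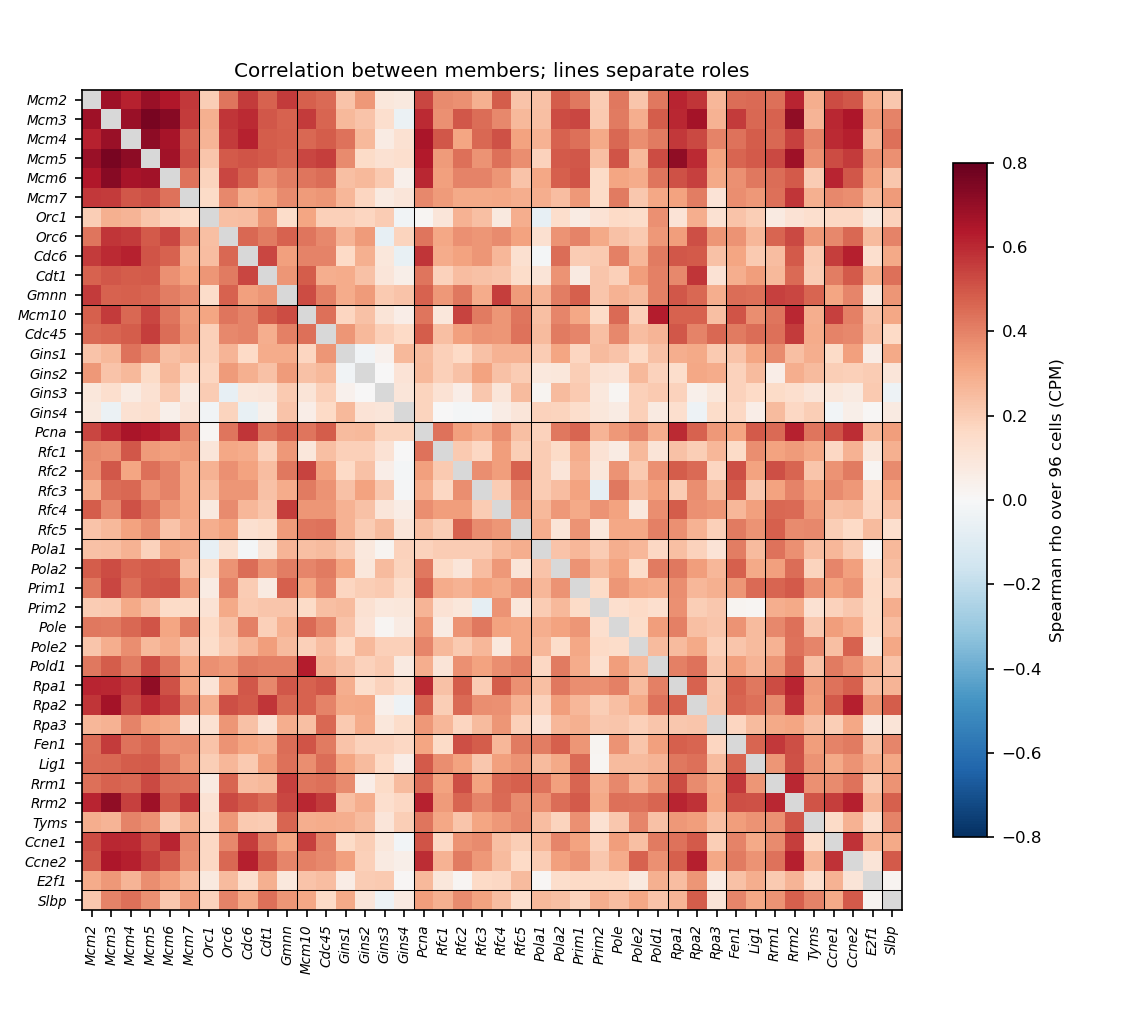
Spearman rho between members over 96 cells, with members in the order of their roles, red for positive, blue for negative and lines between roles. The Mcm2 to Mcm7 block is the darkest, with a median of 0.66, and the rows of Gins3 and Gins4 are pale.

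Between sisters much less of this covariation was left. Over the differences of daughter 1 minus daughter 2 in 48 pairs, the median rho over all 861 combinations was 0.11, and it was 0.28 within the helicase genes. Rrm1, Rrm2 and Tyms kept a median of 0.34, and Rpa1, Rpa2 and Rpa3 had -0.06. Among single members, Rrm2 had the highest correlation with the score of the other members over cells, 0.81, followed by Mcm4 at 0.79, and Gins4 had the lowest, 0.13. In all, 25 of 42 members reached 0.5 with that score.

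The low end of the S-phase score was occupied by 8 cells below -1.2, of which the highest was at -1.27, while the next cell stood at -0.90. They came from 6 pairs. Both daughters of pair 4 and of pair 14 were among them, and 1 daughter each of pairs 8, 15, 29 and 46. The sisters of the last 4 scored -0.50, -0.90, -0.58 and 0.16. Daughters 1 and 2 of pair 4 held at most 53 and 40 counts of every helicase gene, and these were the 2 cells with all 6 genes under 1% of the gene's mean. In the other low cells 1 to 5 of the 6 genes were that low, and others were not. Daughter 2 of pair 29, for example, held between 16 and 872 counts over the 6 genes. Over all cells, 31 of the 34 such values were in the 8 low cells. Pcna was still counted in each of the 8, from 505 to 7753. Daughter 1 of pair 4 had the most gene counts of all cells. The 8 cells held 11654 to 12941 detected genes, and only daughter 1 of pair 8 was above the median of 12865.5 over all cells. Their mitochondrial share ran from 1.49% to 3.84%, against a median of 1.94% over all cells. Daughter 2 of pair 4, the cell with the lowest score, had the highest share of all cells. It also had the lowest counts of Krt5 and Krt14, at 6760 and 691. Set 4, which holds pairs 14 and 15, had a median score of -0.89, and the other sets had medians from -0.06 to 0.60. The part of set, depth or RNA quality in these cells was not tested. Over all 96 cells the score had a rho of 0.30 with genes detected, 0.14 with gene counts and -0.37 with the mitochondrial share.

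The S-phase and G2/M scores were close to unrelated in rank but not in the low tail. Over 96 cells Spearman's rho was 0.14 and Pearson's r was 0.53, and without the 2 cells farthest from the median score they were 0.08 and 0.49. Scaled by ERCC in place of the library total, rho was 0.35. The 8 cells lowest in the S-phase score all had G2/M scores of -0.85 or lower, and so did 11 other cells from 8 pairs, with S-phase scores from -0.90 to 0.50. A low G2/M score thus also occurred at a middling S-phase score, as in pair 6, whose daughters had S-phase scores of 0.28 and 0.37 and G2/M scores of -1.14 and -0.92. Without the 6 pairs that hold a cell below -1.2, which leaves 84 cells and was chosen after the values were seen, rho was -0.21. Over sister differences in 48 pairs, rho was 0.31 and r was 0.72, and without the 2 farthest pairs 0.22 and 0.60. The rank order thus turned in sign with 6 pairs, and without set 4 alone rho was -0.00086.

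**Figure D5:**
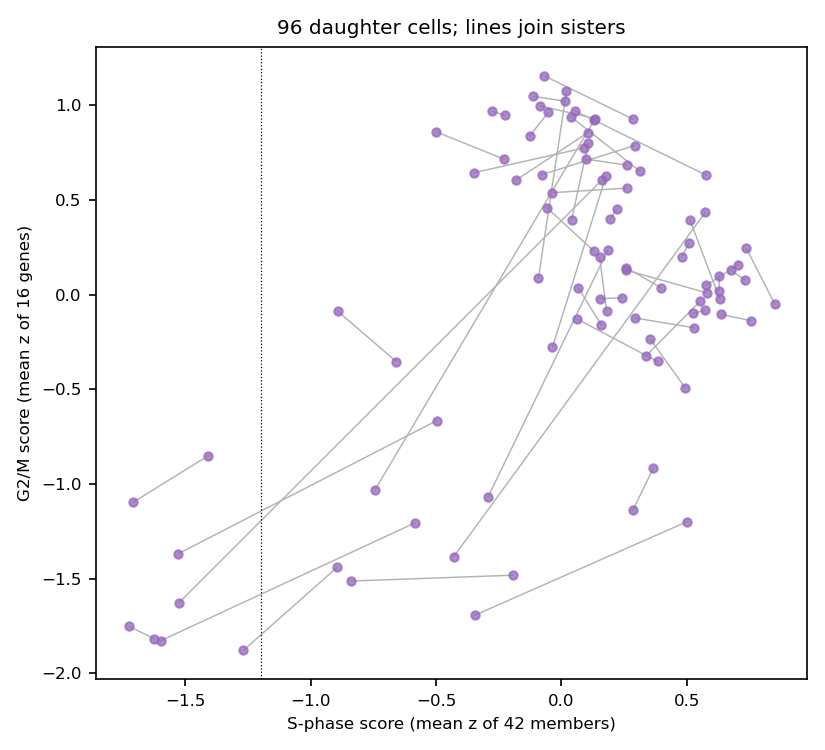
G2/M score against S-phase score, in mean z units, with 1 point for each of 96 cells, grey lines between sisters and a dotted line at -1.2. The 8 cells left of the line are also low in G2/M score, at -0.85 or lower, but 11 of the other 88 cells are as low in G2/M score, at S-phase scores from -0.90 to 0.50.

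Genes outside the 42 showed how far this pattern reached. Of 40 other replication genes, 37 had a positive rho with the S-phase score and 19 reached 0.5, with a median of 0.45. This list too was chosen with earlier results of these data known, so it is not independent of them. Over the 14421 genes outside the members the median was 0.03, and 70 genes (0.485%) reached 0.5. The highest of the 40 were Atad2, a chromatin ATPase, and Clspn, the checkpoint adaptor at forks, at 0.80 each, and Uhrf1 and Hells, which act in the maintenance of DNA methylation, at 0.75 each. Of the remaining origin recognition subunits Orc2 had 0.24, Orc5 0.11, and Orc3 and Orc4 -0.04 each, where Orc1 had 0.28 and Orc6 0.60 with the score of the other members. Pold4, a small polymerase delta subunit, had -0.08. Among all genes outside the members, the 10 most like the score over 96 cells were Atad2, Clspn, Exo1 (0.77), Ncapg2, Uhrf1, Hells (0.75 each), Atad5 (0.74), Mybl2, Nasp (0.73 each) and Ezh2 (0.70).

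Other cell-cycle lists had little rank relation to the score. The 16 G2/M genes had a median rho of 0.11 with it, from -0.06 for Ube2c to 0.31 for Aurkb, although their median with each other was 0.71 against 0.31 among the 42 members. Their median intraclass correlation of 0.55 was above the 0.36 of the members. Of the 13 G1 genes 12 passed the filter. Their median was 0.06, with Cdk4, the kinase of D cyclins, at 0.47, Ccnd3 at 0.41 and Ccnd1 at 0.04. Krt5, Krt14 and Trp63 stood at 0.33, 0.28 and 0.11, and Mki67 at 0.19.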

How the data were processed

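G&T-seq libraries of 96 single cells were sequenced by the authors as 150-base read pairs on 1 lane after ERCC spike-in RNA had been added. Per the methods and the submitters' processing notes, reads were trimmed with Trimmomatic 0.39, aligned with STAR 2.7.11a to GRCm38 with Ensembl release 100 and summarised with StringTie 2.2.1. The deposited counts are coverage times length divided by 75, rounded up, which held within 1 count for 4081 of 4081 ERCC values, so they are not read tallies and no counting interval is given. The deposited TPM values were used for levels between genes. The 42 members and all lists were chosen with earlier results of these data known.

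Daughters were compared on counts divided by size factors from the 22 spike-ins present in all cells (median of ratios), plus 1, at the study's 1.5-fold cutoff. Intraclass correlations and scores used log2(CPM + 1), and correlations over cells used CPM. All 42 members, the fixed lists and the 10 genes most like the score were named. Exon overlaps came from GENCODE annotation of GRCm38 (Ensembl 96). Scripts used pandas 2.3.3, numpy 2.4.6, scipy 1.17.1 and Python 3.11.15 and were tested on simulated data. Alternatives were scaling, pseudocount, filter, cutoff, centring and leaving out each set.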

Additional observations from a re-analysis of the deposited data

How the results depend on the processing

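Of 102 study-level values under alternatives that kept all sets, 90 stayed within a limit, 11 moved past it and 1 turned in sign. The limit was a factor of 1.5 for counts of members, pairs or promoters. For medians over members or their combinations it was the standard deviation over these. For the relations between the scores and the intraclass correlation of the S-phase score, it was the standard deviation over the 12 sets. The number of members counted in every cell was 19 at 1 count, 15 at 10 counts and 3 at a TPM of 1. At a 2-fold cutoff 26 members (61.9%) and 61.02% of all genes differed in at least 24 pairs, and the median member did so in 52.1% of pairs against 70.8% at 1.5-fold. Centred within sets, the median intraclass correlation was 0.18 and 2 members exceeded 0.5, against 1.55% of all genes. Scaled by ERCC median of ratios or ERCC total, 14 members exceeded 0.5, against 6.90% and 7.07% of all genes. At 90% of members higher in the same daughter 0 pairs were left of 5. Without the 6 pairs that hold a cell below -1.2, an alternative chosen after seeing the data, 3 members exceeded 0.5 against 3.60% of all genes, 3 pairs were split as a whole, and the rho of the S-phase with the G2/M score was -0.21. With Pearson's r that relation was 0.53, and without the 6 pairs 0.07. Before the start site only, 8 members held an E2F-type match. The cause was not tested.

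With each set of 8 cells left out in turn, members above 0.5 numbered 6 to 14, the highest without set 12, while 4.26% to 5.16% of all genes did so. The rho of the S-phase with the G2/M score ran from -0.00086 without set 4 to 0.19. The median intraclass correlation ran from 0.29 to 0.42, and members past 1.5-fold in at least 24 pairs from 40 to 41. Of 1638 values of single members 99 moved by more than the standard deviation over members. Turns in sign were not counted for them, and the intraclass correlation of Cdc45 was -0.21 after centring. With 1 group there was no fit between groups to which a replicate block could be added. Coverage-derived counts do not give the number of molecules, and 12 members had a median normalized count under 1061, the 95th percentile of ERCC transcripts seen in 19 cells or fewer. How many molecules lie behind their low values was not tested.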
